A study of Homo sapiens with 15 samples.

Results

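The HOX cluster genes were followed in IMR32 cells, an established human neuroblastoma line, before and after induction of MSX1. Members were taken as every gene whose only symbol in the platform annotation was HOX followed by the cluster letter A, B, C or D and a number, and each was read from its probe set with the highest mean signal over the 15 arrays. A probe set is the group of oligonucleotides on an Affymetrix array that reads 1 transcript or a few. This gave 28 HOX genes of the 19775 genes with a single symbol, and of the 39 HOX genes in the RefSeq gene table. The C cluster on chromosome 12 was represented by 9 of its 9 genes, the B cluster on chromosome 17 by 10 of 10, the D cluster on chromosome 2 by 8 of 9 and the A cluster on chromosome 7 by 1 of 11, HOXA2. The other genes are not analysed here.

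All cells carried an MSX1 gene that doxycycline switches on. The design held 5 groups of 3 arrays: a t = 0 group, groups treated with doxycycline and sampled at t = 8, t = 24 or t = 48 (called induced), and a control group kept without doxycycline until t = 48. The labels give no unit of time. The labels do not name the promoter or say whether the cells were 1 clone, and no group received doxycycline without carrying the construct, so doxycycline and MSX1 cannot be told apart. Whether the replicates were separate cultures is not stated either, and the p-values therefore describe only how these 3 samples per group scatter, which may be technical scatter.

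HOX genes encode homeodomain transcription factors and lie in clusters in which the order along the chromosome follows the order of expression along the body axis of the embryo. HOX proteins bind DNA with partners of the TALE homeodomain class, PBX and MEIS proteins. Polycomb complexes keep the clusters silent, Trithorax complexes keep them active, and retinoic acid switches on genes at the anterior end of a cluster. MSX1 also encodes a homeodomain protein, known as a transcriptional repressor, but its gene lies outside the HOX clusters. Neuroblastoma arises from the sympathetic lineage of the neural crest, whose cells carry HOX expression from the level of the body axis at which they formed.

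Values are MAS5 signals, linear intensities that had been scaled array by array. The brighter of 2 MSX1 probe sets gave 46.5, 50.2 and 55.5 in the control arrays at t = 48 and 96.9, 67.7 and 84.9 in the induced arrays at t = 48. It gave 184.1, 158.2 and 140.1 at t = 8 and 142.2, 171.5 and 182.3 at t = 24, but already 115.6, 121.5 and 95.5 at t = 0. In this probe set the induced arrays at t = 48 were thus above the control arrays and below the t = 0 arrays, which overlapped them only by their lowest value. The dimmer MSX1 probe set gave 10.3, 9.2 and 20.2 in the induced and 22.8, 28.4 and 9.1 in the control arrays at t = 48. It gave 24.3, 32.2 and 34.6 at t = 0, 22.5, 23.6 and 23.5 at t = 8 and 27.4, 21 and 16.9 at t = 24, and so showed no rise with induction. Of 10 adrenergic neuroblastoma markers, 7 reached the array median on all 15 arrays, while TH, the enzyme that begins catecholamine synthesis, reached it on none. The summed signal of 10 fibroblast markers ran from 1291.7 to 1432.5 at t = 0, from 1578.5 to 1688.6 in the control and from 2117.9 to 2178.2 in the induced arrays at t = 48, and 4 of the 10 reached the median on all 15 arrays. A sum is carried by the brightest genes. Of the 9 fibroblast markers tested, 3 rose and 0 fell between induced and control cells at t = 48, where 5.31% of all genes rose. The median log2 difference of the 9 was -0.04, so the list as a whole was not higher. SOX10 and S100B (Schwann cells), CDH1 and KRT19 (epithelium) and PTPRC, CDH5 and VWF (blood and endothelium) reached the median on no array. Other markers on these lists did give signal. Of 3 Schwann markers on the array, 1 reached the median on all 15 arrays. It was higher in induced than in control cells at t = 48, by 0.53 on the log2 scale. Of 5 epithelial and 5 blood and endothelial markers, 2 each had enough signal to be tested, and 0 passed in that comparison. The BioC hybridisation control was weak on 2 arrays, replicate 1 at t = 24 and replicate 3 of the induced arrays at t = 48, at 87.6 and 98.9 against 346.3 to 429.6 elsewhere. The ratio of the distal to the proximal ACTB probe sets, a sign of RNA integrity, was 1.52, 1.41 and 1.27 in the induced arrays at t = 48 and 1.22 to 1.31 in the control arrays.

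Most of the 28 HOX genes read gave little signal in these cells, and those that gave signal lay mainly in the D and C clusters. The A cluster was read through 1 of its 11 genes, so nothing is said of its other genes. The array median, the middle signal of all probe sets on an array, was used as the mark of a readable signal and ran from 18.1 to 22.6 with a mean of 20.1. Mean signal was above it for 11 of the 28 members, which were 6 of the 8 D cluster genes (HOXD1, HOXD4, HOXD8, HOXD9, HOXD10 and HOXD13), 4 of the 9 C cluster genes (HOXC4, HOXC5, HOXC6 and HOXC9) and 1 of the 10 B cluster genes (HOXB5). The mean array median lay between percentiles 39.2 and 41.0 of the 19775 genes by mean signal, so most of all genes were above it. The single A cluster gene, HOXA2, had a mean of 3.43. Only 6 members reached the median on every one of the 15 arrays: HOXC4, HOXC6, HOXD4, HOXD8, HOXD9 and HOXD10.

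The brightest probe sets were those of HOXC4 and HOXD8, with mean signals of 130.9 and 128.9, followed by HOXD4 with 100.3 and HOXD9 with 73.0. Probe sets bind with different strength, so these values do not rank the amounts of the transcripts. Even HOXC4 lay only at percentile 66.2 of the 19775 genes by mean signal. At the edge, HOXD13 was just above the mean array median with 20.3 and HOXB9 just below with 18.0. The median of the members' means was 34.9 in the D cluster, 17.4 in the C cluster and 8.18 in the B cluster.

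Of the 28 members, 12 did not reach the array median on the 3 arrays needed for testing, and 11 of these reached it on none. These 12 were HOXA2, 7 B cluster genes (HOXB1, HOXB2, HOXB3, HOXB6, HOXB7, HOXB8 and HOXB13), HOXC12 and HOXC13 at the posterior end of the C cluster, and HOXD11 and HOXD12. Their means lay between 0.873 and 12.3, and 2 of their 180 single values reached the array median, both of HOXB1. Along the D cluster, HOXD13, the most posterior gene, reached the median on 8 arrays while its neighbours HOXD11 and HOXD12 reached it on none. HOXD13 was read from the brightest of 3 probe sets, with a mean just above the mean array median. HOXD11 and HOXD12 had 1 probe set each, so these values do not show a gap in expression. The number of members at or above the median was 12, 13 and 14 on the arrays at t = 0, 14, 14 and 12 at t = 8, 10, 10 and 14 at t = 24, 10, 9 and 9 in the induced arrays at t = 48, and 13, 11 and 13 in the control arrays. The induced arrays at t = 48 thus held fewer such members than each control array.

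**Figure D1:**
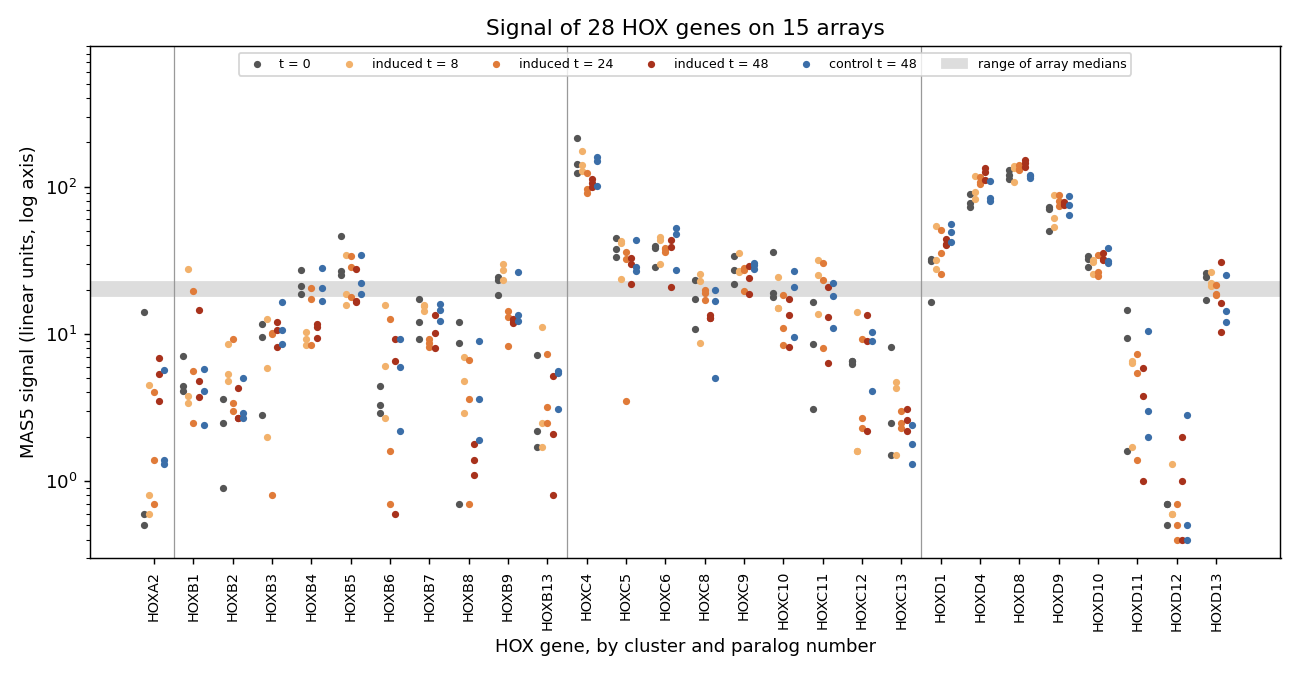
MAS5 signal (linear units on a log axis) of the 28 HOX genes, ordered by cluster and number, on each of the 15 arrays; each point is 1 array, coloured by group, and the grey band is the range of the array medians, 18.1 to 22.6. HOXC4, HOXD4, HOXD8 and HOXD9 lie above the band on every array, and 11 of the 28 genes reach the median on no array.

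The 16 members with a signal at or above the array median on at least 3 arrays were tested in limma together with all other such genes, 12868 in all, on log2(signal + 5.16). Between induced and control cells at t = 48, 0 of the 16 passed an adjusted p of 0.05, against 8.6% of all genes tested. At an unadjusted p under 0.05, 3 did: HOXB4, HOXD4 and HOXD8. The same 3 had induced and control arrays that did not overlap, HOXD4 and HOXD8 higher and HOXB4 lower in the induced cells, and 31.3% of all genes tested did not overlap. Except for the F-test, counts at an unadjusted p are given without the share of all genes at that cut. That share is at least as large as the share at the adjusted p, but how much larger is not given. Whether such counts exceed it can therefore not be told. The median log2 difference was -0.23 over the 16 members and -0.01 over all genes. The median size of the difference without its sign was 0.27 for the members and 0.18 for all genes. All tested members except HOXD8 and HOXD10 also scattered more within groups than the median gene. The residual SD on the log2 scale reached 0.57 (HOXC5), against a median of 0.165 over all genes. How far scatter makes up the larger sizes was not tested. In simulated data for this comparison, with 200 of 12868 genes changed, limma called 84% of 2-fold and 36% of 1.41-fold changes, so a HOX gene that did not pass may have changed. These shares are not for the tested HOX genes alone, most of which scattered more than the median gene. The simulation also changed a smaller part of the genes than the 8.6% that passed here. The shares depend on that number and hold only for the simulated setting.

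Over the induced time course, HOXB4, HOXB9 and HOXD4 passed in at least 1 comparison. By t = 8, 1 member had fallen from its level at t = 0 (HOXB4) and 0 had risen, against 2.1% of all genes called, and 2 members had an unadjusted p under 0.05. By t = 24, 1 had fallen (HOXB9) and 0 had risen, against 10.8%, with 4 at an unadjusted p under 0.05. In induced cells at t = 48, 2 fell (HOXB4 and HOXB9) and 1 rose (HOXD4) against t = 0, where 18.1% of all genes passed. The 3 of 16 members lie near the share of all genes. At an unadjusted p under 0.05, a looser cut than that of the 18.1%, 6 passed. The median size of the difference without its sign was 0.39 for the members and 0.22 for all genes, with the same greater scatter of most members within groups. In the control from t = 0 to t = 48, 0 members passed in limma, against 0.847% of all genes. At an unadjusted p under 0.05, 1 did, HOXD1. Of the steps between induced times, that from t = 8 to t = 24 called 1 member (HOXB9, lower), against 6.29%, with 2 at an unadjusted p under 0.05. The step from t = 24 to t = 48 called 0 in limma, against 4.04%, with 0 at an unadjusted p under 0.05. A moderated F-test over all 5 groups called HOXB9 (adjusted p = 0.0181) and HOXB4 (adjusted p = 0.0187), 2 of 16, against 19.7% of all genes. In that F-test 3 members had an unadjusted p under 0.05, against 34.1% of all genes. HOXB4 and HOXB9 passed the signal filter through the groups in which they were higher. A difference between groups was thus built into their choice, and their calls in these counts are a description. Groups that did not overlap were found for 1 member between t = 0 and t = 8 (14.3% of all genes), 4 between t = 0 and t = 24 (30.4%), 9 between t = 0 and induced t = 48 (37.2%), 1 between t = 0 and the control (18.8%), 2 between t = 8 and t = 24 (27.9%) and 1 between t = 24 and induced t = 48 (19.9%). The comparisons with t = 0 share the same 3 arrays, and those with the control share its 3 arrays.

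**Figure D2:**
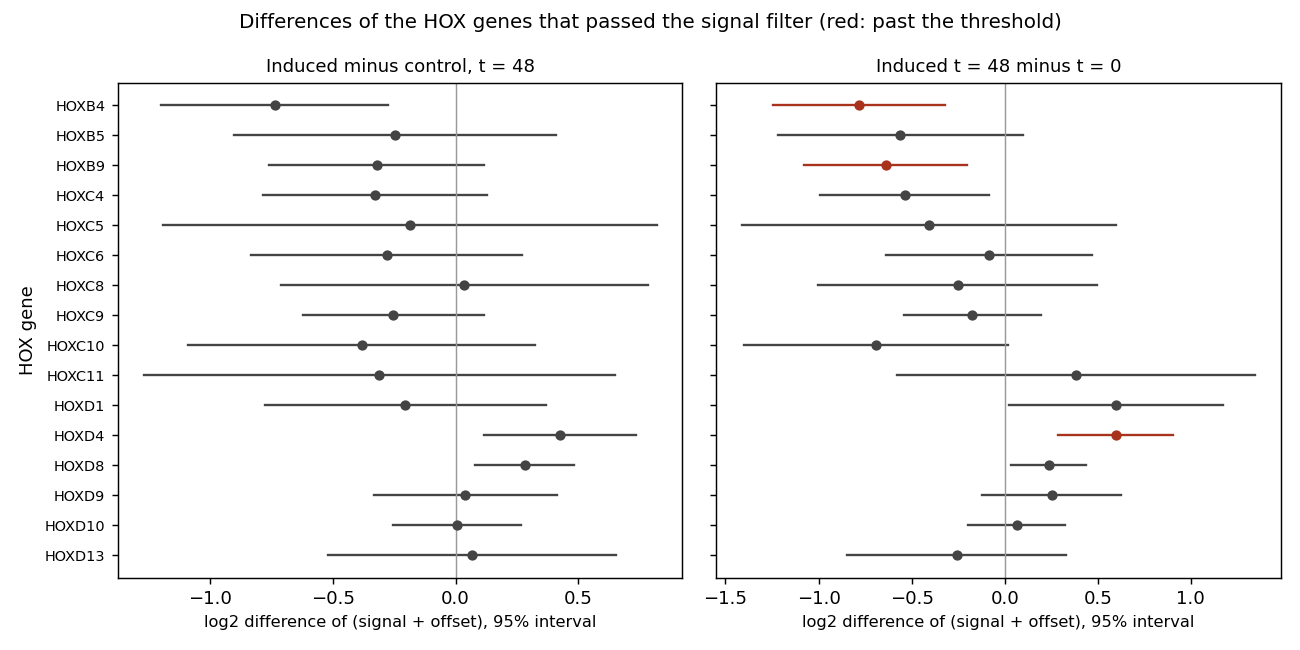
Log2 difference of (signal + 5.16) with its 95% interval for the 16 HOX genes tested, induced minus control at t = 48 on the left and induced t = 48 minus t = 0 on the right; red marks an adjusted p under 0.05. On the left 0 of 16 are red; on the right HOXB4 and HOXB9 are lower and HOXD4 is higher.

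HOXD4, HOXD8 and HOXD-AS2 lie close together in the D cluster, in the order HOXD8, HOXD-AS2, HOXD4 in RefSeq with LOC401021 and MIR10B between HOXD-AS2 and HOXD4, and their values moved in different directions. HOXD-AS2 is a noncoding RNA. The stretch of 250 bases before each start, and before that of HOXC4 as the member with the brightest probe set, is shown because homeodomain proteins bind DNA around a TAAT core. Sequences are from RefSeq (GRCh38.p14), written 5′ to 3′ on the strand of the gene, with TAAT on either strand (read as ATTA on the other) in capitals. They cover chr2:176151300-176151549 (plus strand) for HOXD4, chr2:176129455-176129704 (plus strand) for HOXD8, chr2:176137099-176137348 (minus strand) for HOXD-AS2 and chr12:54016638-54016887 (plus strand) for HOXC4.
HOXD4: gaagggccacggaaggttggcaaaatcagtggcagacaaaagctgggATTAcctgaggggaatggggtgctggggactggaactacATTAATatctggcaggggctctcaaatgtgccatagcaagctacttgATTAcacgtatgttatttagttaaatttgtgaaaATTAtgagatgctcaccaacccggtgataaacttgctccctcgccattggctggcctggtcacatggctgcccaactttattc
HOXD8: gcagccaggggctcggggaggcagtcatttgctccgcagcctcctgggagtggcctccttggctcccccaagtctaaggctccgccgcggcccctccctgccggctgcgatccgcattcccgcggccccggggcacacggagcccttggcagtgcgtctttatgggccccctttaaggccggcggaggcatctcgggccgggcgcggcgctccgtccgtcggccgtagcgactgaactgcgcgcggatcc
HOXD-AS2: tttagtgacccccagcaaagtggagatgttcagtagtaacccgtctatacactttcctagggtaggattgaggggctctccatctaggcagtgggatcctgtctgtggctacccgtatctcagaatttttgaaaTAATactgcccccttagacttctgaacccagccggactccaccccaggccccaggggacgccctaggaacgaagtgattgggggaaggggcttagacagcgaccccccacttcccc
HOXC4: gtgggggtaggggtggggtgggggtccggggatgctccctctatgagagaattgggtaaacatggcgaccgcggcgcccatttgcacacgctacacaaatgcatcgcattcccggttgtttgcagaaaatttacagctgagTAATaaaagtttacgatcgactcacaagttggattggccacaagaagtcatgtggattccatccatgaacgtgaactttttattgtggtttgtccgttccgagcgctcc
The HOXD4 stretch holds 5 matches, 2 of which overlap, the HOXD8 stretch 0, and those of HOXD-AS2 and HOXC4 1 each. The HOXD8 stretch is 72.4% G or C and that of HOXD4 47.6%. TAAT on either strand occurs in 47.4% of the 35116 stretches of the same length in the promoter table, and in 9 of the 11 members found there. The longer TAATTG, a site preferred by MSX proteins, occurs in 6.70% of all stretches and in 1 of the 11 members, HOXD10, and every such match is also a match to the shorter core. The letters AGGTCA, the half-site of retinoic acid receptors, occurs in 12.1% of all stretches and in 0 of the 11. A match describes the letters and is no evidence of binding.

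HOXD4, a gene of the anterior part of the D cluster that is known to respond to retinoic acid in the hindbrain, rose in induced cells. Its signals were 72.9, 89.4 and 77.8 at t = 0, 91.7, 118.2 and 82.2 at t = 8, 103.7, 108.1 and 116.8 at t = 24, 134.2, 110.7 and 125.8 in the induced arrays at t = 48 and 109.3, 84.5 and 79.7 in the control arrays. All arrays at t = 24 and all induced arrays at t = 48 lay above all arrays at t = 0, and the highest control array was just below the lowest induced array at t = 48. The mean went from 80.0 ± 8.47 at t = 0 to 124 ± 11.9 in induced cells at t = 48 (SD, n = 3 each), a log2 difference of 0.60 (SE 0.14, 95% interval 0.29 to 0.91; limma, adjusted p = 0.0133). Leaving out any 1 of the 6 arrays kept the call, with an adjusted p of at most 0.0475. Against the control at t = 48 the difference was 0.43 (SE 0.14, interval 0.12 to 0.74; limma, adjusted p = 0.0898) and did not pass. It passed without control replicate 1, the highest control array (limma, adjusted p = 0.0453), and in none of the other 18 alternatives, where the adjusted p reached up to 0.248. In the control the difference from t = 0 was 0.17 (SE 0.14; limma, adjusted p = 0.725).

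The other probe sets that list HOXD4 differed among themselves, and none of them passed in these comparisons when each probe set was tested. A second HOXD4 probe set had a mean signal of 18.6, a log2 difference of -0.08 between t = 0 and induced t = 48 and one of 0.38 against the control (limma, adjusted p = 0.834 and 0.339). Another 3 probe sets list HOXD3, LOC401021 and HOXD4 together and were left out of the members because they name several genes. Their means were 123.1, 30.3 and 23.1, and their differences between t = 0 and induced t = 48 were 0.27, -0.53 and 0.46 in that order (limma, adjusted p = 0.239, 0.0815 and 0.292). Against the control they differed by 0.11, -0.24 and 0.34 (limma, adjusted p = 0.7, 0.482 and 0.51). HOXD3 and HOXD4 overlap in RefSeq, so which transcripts each probe set reads is uncertain.

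HOXD8, a gene of the middle of the D cluster, also had its highest mean in induced cells at t = 48, with a smaller difference. Its signals were 113.0, 130.3 and 121.1 at t = 0, 138.2, 135.0 and 108.5 at t = 8, 130.6, 141.0 and 131.6 at t = 24, 151.4, 136.5 and 143.9 in the induced arrays at t = 48 and 117.7, 119.6 and 114.9 in the control arrays. All induced arrays at t = 48 were above all control arrays and all arrays at t = 0. The log2 difference from the control was 0.28 (SE 0.09, interval 0.08 to 0.48; limma, adjusted p = 0.0855) and that from t = 0 was 0.24 (SE 0.09; limma, adjusted p = 0.0961), and neither passed. Over the 15 arrays HOXD4 and HOXD8 had a Pearson correlation of 0.80, the highest of the 120 pairs of tested members, which is a description of arrays that share groups.

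HOXD-AS2 fell while HOXD4 rose. Its signals were 155.0, 97.5 and 120.2 at t = 0, 161.7, 166.8 and 120.5 at t = 8, 74.8, 89.8 and 126.9 at t = 24, 75.8, 71.9 and 80.9 in the induced arrays at t = 48 and 154.1, 111.4 and 138.2 in the control arrays. All induced arrays at t = 48 were below every control array and every array at t = 0. The log2 difference from the control was -0.77 (SE 0.20; limma, adjusted p = 0.0351) and that from t = 0 was -0.65 (SE 0.20; limma, adjusted p = 0.0452). The call against the control was lost when any 1 of the 3 induced arrays, control replicate 1 or control replicate 3 was left out, and without the 6 arrays in turn the adjusted p in limma ran from 0.0417 to 0.127. The call against t = 0 was lost without any 1 of the induced arrays, t = 0 replicate 1 or t = 0 replicate 3, with a range of 0.0309 to 0.147. Its correlation over 15 arrays was -0.53 with HOXD8 and -0.43 with HOXD4.

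**Figure D3:**
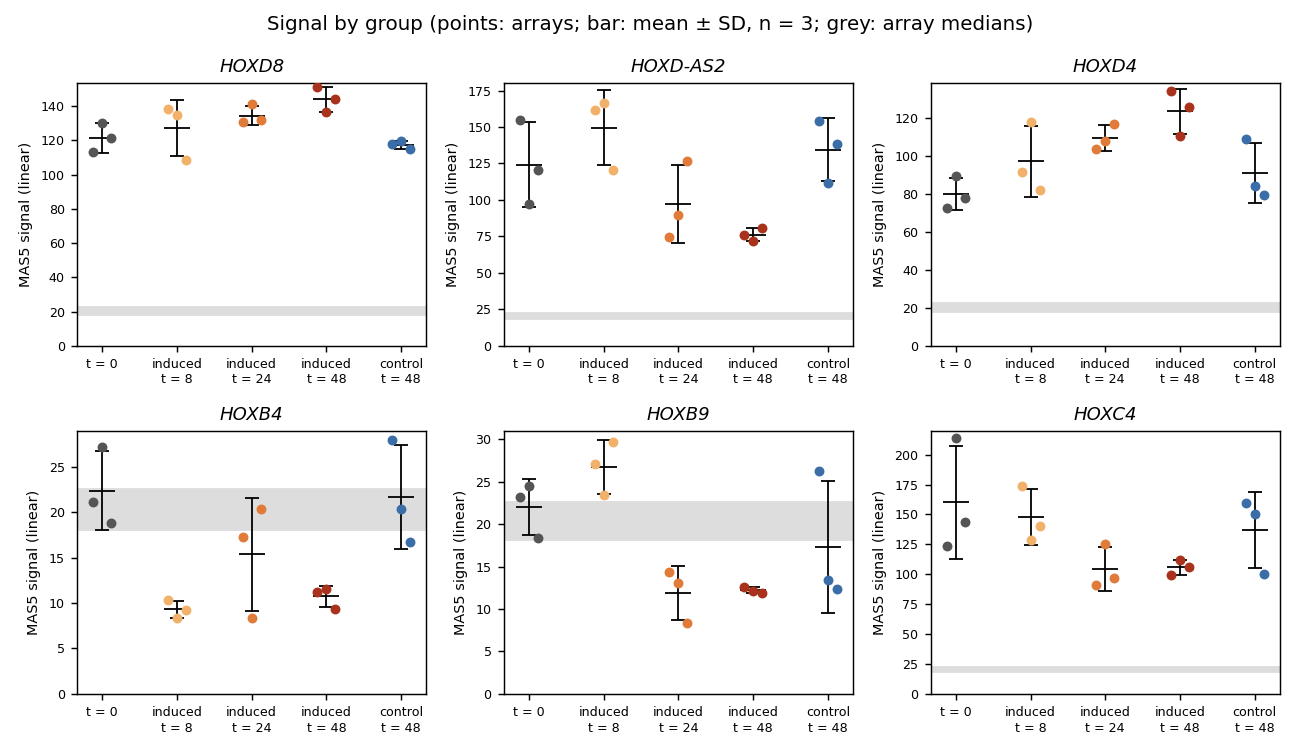
MAS5 signal (linear units, axes from 0) of HOXD8, HOXD-AS2, HOXD4, HOXB4, HOXB9 and HOXC4 in the 5 groups; points are arrays, bars are mean ± SD (n = 3), and the grey band is the range of array medians. HOXD4 and HOXD8 are highest and HOXD-AS2 lowest in the induced arrays at t = 48, while HOXB4 and HOXB9 lie within or near the band.

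The remaining D cluster genes did not pass in any comparison. HOXD1, the most anterior gene of the cluster, gave 16.5, 32.3 and 31.5 at t = 0, 54.2, 27.8 and 32.0 at t = 8, 35.4, 50.7 and 25.6 at t = 24, 40.8, 40.5 and 43.9 in the induced arrays at t = 48 and 55.9, 42.0 and 49.5 in the control arrays. Its arrays at t = 48, with and without doxycycline, were all above those at t = 0. The log2 differences were 0.60 and 0.80 (SE 0.26 each; limma, adjusted p = 0.137 and 0.24). HOXD9 gave 72.6, 50.3 and 70.8 at t = 0, 88.2, 61.6 and 53.6 at t = 8, 87.3, 79.8 and 73.6 at t = 24, 76.7, 75.5 and 78.7 in the induced arrays at t = 48 and 86.5, 75.3 and 63.9 in the control arrays. Its induced and control arrays at t = 48 overlapped, and the difference was 0.04 (interval -0.33 to 0.41). HOXD10, which takes part in limb and spinal motor neuron patterning, gave 32.4, 28.5 and 33.9 at t = 0, 25.4, 30.8 and 31.9 at t = 8, 34.2, 26.5 and 24.9 at t = 24, 32.5, 35.5 and 31.8 in the induced arrays at t = 48 and 31.3, 38.1 and 30.3 in the control arrays. All 5 groups overlapped, and its coefficient of variation over the 15 arrays was 11.8%. HOXD13, a gene of the digits and the genital bud, gave 26.0, 16.9 and 24.2 at t = 0, 26.2, 21.1 and 22.2 at t = 8, 18.8, 18.4 and 21.6 at t = 24, 30.6, 16.2 and 10.3 in the induced arrays at t = 48 and 25.2, 12.1 and 14.4 in the control arrays. These values overlapped throughout and lay at the array median, and its other 2 probe sets had means of 9.47 and 5.37.

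HOXB4, known for its part in blood stem cell growth, was lower at t = 8 and in induced cells at t = 48 than at t = 0. Its signals were 21.1, 27.2 and 18.8 at t = 0, 10.3, 8.4 and 9.2 at t = 8, 17.3, 8.4 and 20.4 at t = 24, 11.2, 11.6 and 9.4 in the induced arrays at t = 48 and 28, 20.4 and 16.7 in the control arrays. All arrays at t = 8 and all induced arrays at t = 48 were below every array at t = 0 and every control array, and t = 24 overlapped with t = 0. The log2 difference from t = 0 was -0.92 at t = 8 (SE 0.21; limma, adjusted p = 0.0463) and -0.78 in induced cells at t = 48 (SE 0.21; limma, adjusted p = 0.0246). Against the control at t = 48 it was -0.74 (SE 0.21; limma, adjusted p = 0.0513) and did not pass, although it passed with each array centred on its median and with quantile normalization. The call at t = 8 was lost when any 1 of the 6 arrays was left out (adjusted p in limma from 0.0753 to 0.172), and that at t = 48 without t = 0 replicate 2 or without replicate 2 or 3 of the induced arrays (0.0345 to 0.0903 over the 6 arrays).

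HOXB9, a posterior gene of the B cluster, was lower at t = 24 and in induced cells at t = 48. Its signals were 23.2, 24.5 and 18.3 at t = 0, 27.1, 23.4 and 29.7 at t = 8, 14.3, 13.1 and 8.3 at t = 24, 12.6, 12.1 and 11.9 in the induced arrays at t = 48 and 26.3, 13.4 and 12.3 in the control arrays. The arrays at t = 24 and the induced arrays at t = 48 were below all arrays at t = 0 and t = 8, while the control arrays spanned both levels. The log2 difference from t = 0 was -0.68 at t = 24 (SE 0.20; limma, adjusted p = 0.0491) and -0.64 at induced t = 48 (SE 0.20; limma, adjusted p = 0.0458), and that from t = 8 to t = 24 was -0.92 (SE 0.20; limma, adjusted p = 0.0202). Against the control at t = 48 it was -0.32 (interval -0.76 to 0.12; limma, adjusted p = 0.367). Both calls against t = 0 were lost when any 1 of their 6 arrays was left out (adjusted p in limma from 0.0591 to 0.157 at t = 24 and from 0.0524 to 0.133 at t = 48). The call from t = 8 to t = 24 was lost without t = 8 replicate 1 or 3 or t = 24 replicate 3 (0.0342 to 0.0712). A second HOXB9 probe set had a mean of 13.4 and log2 differences of -0.35 at t = 24 and -0.15 at induced t = 48 from t = 0, and of -0.01 from t = 8 to t = 24.

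HOXB4 and HOXB9 had means of 15.9 and 18.0, below the mean array median, and each reached the median on 6 of 15 arrays. They passed the signal filter through the groups in which they were higher, so a difference between their groups was built into the choice, and their calls are given as a description. When genes were kept by their mean signal over all arrays, both dropped out. HOXB5, the B cluster gene with the highest mean, gave 26.7, 46.0 and 25.1 at t = 0, 34.3, 18.6 and 15.6 at t = 8, 33.7, 17.7 and 28.4 at t = 24, 27.5, 16.4 and 16.7 in the induced arrays at t = 48 and 34.3, 22.1 and 18.7 in the control arrays. All 5 of its groups overlapped, and it did not pass in any comparison.

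HOXC4, the most anterior gene of the C cluster and the brightest HOX probe set here, did not pass in any comparison. Its signals were 123.4, 213.5 and 143.5 at t = 0, 173.9, 128.8 and 140.1 at t = 8, 91.2, 124.9 and 96.7 at t = 24, 99.6, 112.1 and 106.0 in the induced arrays at t = 48 and 159.5, 150.0 and 100.5 in the control arrays. The induced arrays at t = 48 lay below all arrays at t = 0, but control replicate 3 lay among them. The log2 difference from t = 0 was -0.57 at t = 24 and -0.54 at induced t = 48 (SE 0.21 each; limma, adjusted p = 0.106 and 0.0946), and that from the control was -0.33 (interval -0.78 to 0.13; limma, adjusted p = 0.376). In RefSeq HOXC4, HOXC5 and HOXC6 share a start, so their probe sets may read common transcripts.

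The other C cluster genes tested did not pass either. HOXC5 gave 37.8, 44.8 and 33.3 at t = 0, 23.6, 42.5 and 41.2 at t = 8, 32.2, 3.5 and 36.3 at t = 24, 32.6, 29.7 and 21.8 in the induced arrays at t = 48 and 28.4, 43.4 and 26.9 in the control arrays. HOXC6 gave 39.8, 38.3 and 28.7 at t = 0, 29.7, 45.5 and 43.8 at t = 8, 37.6, 36.2 and 38.6 at t = 24, 20.9, 39 and 43.3 in the induced arrays at t = 48 and 47.9, 52.8 and 27.3 in the control arrays. In both, induced and control arrays at t = 48 overlapped, and the lowest HOXC5 value stood apart from its 2 fellow arrays at t = 24. HOXC9, known for promoting neuronal differentiation of neuroblastoma cells, gave 21.8, 33.9 and 27.1 at t = 0, 35.4, 26.6 and 26.2 at t = 8, 27.1, 19.5 and 28.2 at t = 24, 18.7, 29.0 and 23.9 in the induced arrays at t = 48 and 29.2, 30.3 and 27.8 in the control arrays. Replicate 2 of the induced arrays lay within the control range, the other 2 below it.

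HOXC8, HOXC10 and HOXC11 lay at or under the array median. HOXC8 gave 10.8, 17.4 and 23.3 at t = 0, 8.7, 25.5 and 22.9 at t = 8, 17.1, 19.8 and 19.0 at t = 24, 12.8, 12.9 and 13.5 in the induced arrays at t = 48 and 5.0, 16.8 and 20 in the control arrays. HOXC10 gave 17.8, 36.3 and 19.1 at t = 0, 24.3, 14.9 and 14.9 at t = 8, 8.4, 10.9 and 18.3 at t = 24, 13.4, 17.2 and 8.1 in the induced arrays at t = 48 and 20.8, 9.6 and 26.7 in the control arrays. HOXC11 gave 8.6, 16.4 and 3.1 at t = 0, 31.9, 25 and 13.7 at t = 8, 8.0, 30.3 and 23.4 at t = 24, 6.3, 13.1 and 20.8 in the induced arrays at t = 48 and 18.2, 11 and 22.3 in the control arrays. In all 3 the induced and control arrays at t = 48 overlapped, and each reached the array median on 4 or 5 of 15 arrays. The HOXC10 differences were -0.38 from the control at t = 48 (SE 0.33, interval -1.09 to 0.33; limma, adjusted p = 0.514), -0.73 from t = 0 to t = 24 and -0.69 from t = 0 to induced t = 48 (limma, adjusted p = 0.182 and 0.163). HOXC11 differed from the control at t = 48 by -0.31 (SE 0.44, interval -1.27 to 0.65; limma, adjusted p = 0.714). The widest difference among the 16 members was that of HOXC11 from t = 0 to t = 8, 1.03 (SE 0.44; limma, adjusted p = 0.44), which did not pass. HOXC10 reached the median on no array at t = 24 or induced t = 48, and HOXC11 on none at t = 0 or induced t = 48. Both thus passed the signal filter through the other groups, where they were higher. A difference between groups was built into their choice, and these differences are given as a description.

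Members of 1 cluster did not vary together as a rule. Over the 15 arrays, the median Pearson correlation was 0.15 for the 39 pairs within a cluster and -0.09 for the 81 pairs across clusters, on arrays that share groups. The genes most like HOXC4 over the 15 arrays were TUFM (r = 0.94), PTDSS1 (0.93), RPN2 (0.88), DPCD (0.88) and BANF1 (0.88). Those most like HOXB9 were PA2G4 (0.92), HRAS (0.91), CHAF1B (0.90), CHTF18 (0.90) and CEP112 (0.90).

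Among the noncoding RNAs of the HOX clusters, 11 of 20 had a probe set, and 3 had enough signal to be tested. Between induced and control cells at t = 48, 1 of the 3 fell (HOXD-AS2) and 0 rose, where 3.29% of all genes fell. Of these 3, 0 passed once the pair of weak-control arrays was left out. HAGLR, transcribed from between HOXD3 and HOXD1 in the D cluster, had means of 120 ± 12.9 at t = 0 and 158 ± 24.2 at t = 24 (SD, n = 3 each) and rose between them by 0.38 on the log2 scale (SE 0.11; limma, adjusted p = 0.043). That call was lost without replicate 2 or 3 at t = 0 or at t = 24 (adjusted p in limma up to 0.141), and 2 dimmer HAGLR probe sets differed by -0.09 and -0.32. HOTTIP, transcribed from the end of the A cluster, had a mean of 46.7 and did not pass in any comparison. The other 8, HOTAIR among them with a mean of 0.967, reached the array median on no array.

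Of the 11 TALE cofactors on the array, which bind DNA together with HOX proteins, 10 reached the median on all 15 arrays. Between induced and control cells at t = 48, 0 of 11 passed in limma, where 8.6% of all genes passed. At an unadjusted p under 0.05, 2 did, and the median difference was -0.08, against -0.01 for all genes. MEIS1, a cofactor expressed widely in neuroblastoma, gave 1437.6, 1494.7 and 1475.8 at t = 0 and 1037.9, 1077.1 and 1135.4 at t = 8. All arrays at t = 8 were below those at t = 0, and MEIS1 fell by 0.44 on the log2 scale (SE 0.08; limma, adjusted p = 0.0129). The call was lost without t = 8 replicate 1 or 2 or t = 0 replicate 3 (adjusted p in limma from 0.0258 to 0.0601 over the 6 arrays). From t = 8 to t = 24 it rose by 0.30 (SE 0.08; limma, adjusted p = 0.0497), a call lost when any 1 of the 6 arrays was left out (0.0679 to 0.154). A second MEIS1 probe set differed by -0.31 between t = 0 and t = 8 and did not pass (limma, adjusted p = 0.172 with each probe set tested). Between t = 0 and t = 24, PKNOX1 fell by 0.34 and TGIF1, a repressor of the same class, rose by 0.40 (limma, adjusted p = 0.02 and 0.0239). The PKNOX1 call was lost without replicate 1 or 2 at t = 24 or replicate 2 or 3 at t = 0 (up to 0.0647), and the TGIF1 call without replicate 1 at t = 24 or replicate 2 at t = 0 (up to 0.0925). Over the same step the other 4 PKNOX1 probe sets differed by -0.42 to 0.03, and 2 dimmer TGIF1 probe sets by 0.33 and -0.20, none passing when each probe set was tested.

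Of the Polycomb and Trithorax genes, which hold HOX clusters silent or active, 40 were tested, and between induced and control cells at t = 48 0 rose and 3 fell, where 8.6% of all genes passed and 3.29% fell. PHF19, which guides the complex that methylates histone H3, went from 468 ± 19.6 in the control to 334 ± 6.18 in induced cells (SD, n = 3 each), a log2 difference of -0.48 (SE 0.08; limma, adjusted p = 0.00326). PCGF1, a subunit of a variant complex that ubiquitinates histone H2A, differed by -0.46 (SE 0.10; limma, adjusted p = 0.0158), and its call was lost without control replicate 1 or induced replicate 3 (up to 0.0597). RBBP7, a histone-binding subunit shared by several complexes, differed by -0.33 (SE 0.09; limma, adjusted p = 0.0342), a call lost without any 1 of the control arrays or induced replicate 2 or 3 (up to 0.122). The median difference of the 40 was 0.00. Between t = 0 and induced t = 48, 5 rose and 5 fell, where 18.1% of all genes passed. The other PHF19 probe sets differed from the control by -0.50 and -0.24, of which the first passed when each probe set was tested and the second did not (limma, adjusted p = 0.039 and 0.22). A second PCGF1 probe set differed by -0.32 and did not pass (limma, adjusted p = 0.248).

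Of the retinoic acid pathway, 16 genes were tested, and between induced and control cells at t = 48 4 rose and 0 fell, where 5.31% of all genes rose. The median difference was 0.23 for the 16 genes and -0.01 for all genes. ALDH1A3, an enzyme that makes retinoic acid, went from 49.3 ± 7.87 in the control to 93.3 ± 10.6 in induced cells (SD, n = 3 each), a log2 difference of 0.86 (SE 0.11; limma, adjusted p = 0.000459). RDH10, which makes its precursor retinal, went from 84.3 ± 2.08 to 141 ± 13.4, a difference of 0.70 (SE 0.11; limma, adjusted p = 0.00163). A dimmer RDH10 probe set differed by 0.43 and did not pass (limma, adjusted p = 0.0946 with each probe set tested). CRABP2, which carries retinoic acid to its receptors, went from 326 ± 34.7 to 517 ± 9.13, a difference of 0.66 (SE 0.08; limma, adjusted p = 0.000268), and also rose in the control from t = 0 to t = 48 by 0.57 (limma, adjusted p = 0.00516). CYP26B1, which degrades retinoic acid, differed by 0.56 (SE 0.15; limma, adjusted p = 0.0351), a call lost without any 1 of the induced arrays or control replicate 1 or 2 (up to 0.135). So enzymes of synthesis and of breakdown were both among the 4. The fibroblast marker sum given above was also higher in the induced arrays, though the median fibroblast marker was not. The part of these markers in the retinoic acid pathway differences was not tested.

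**Figure D4:**
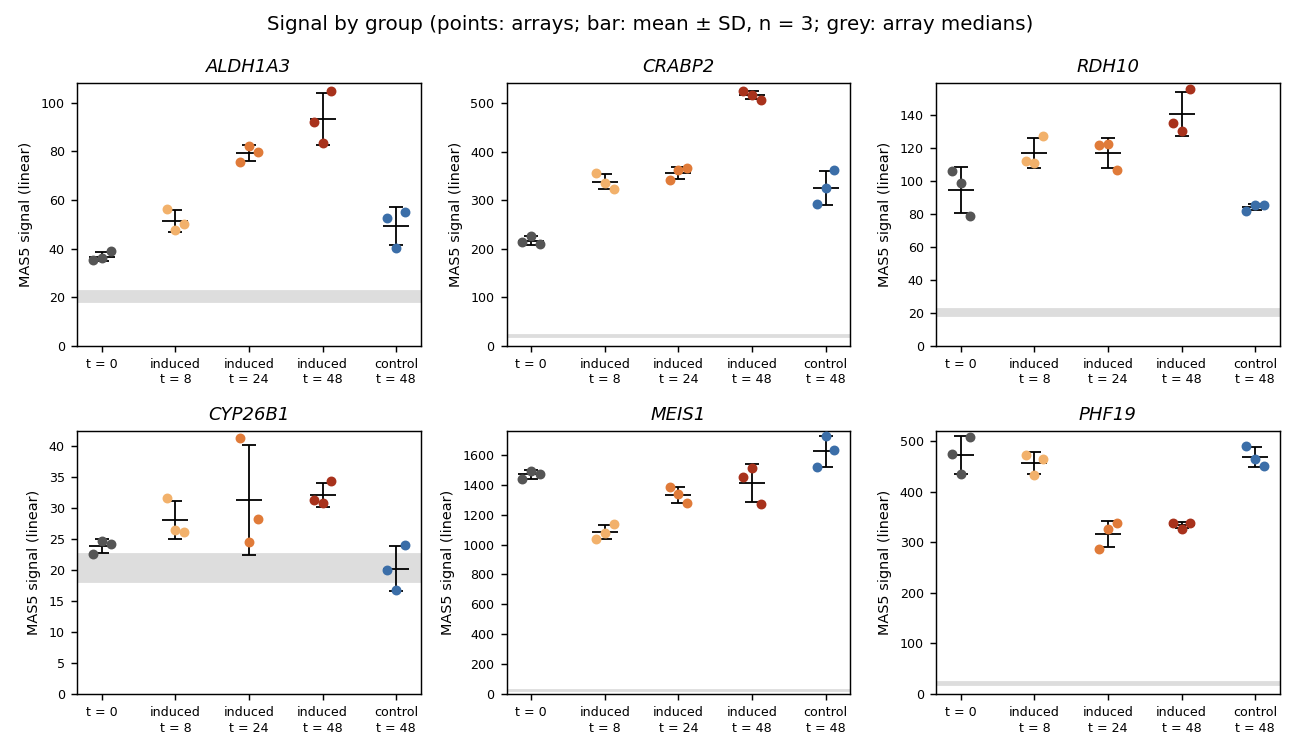
MAS5 signal (linear units, axes from 0) of ALDH1A3, CRABP2, RDH10, CYP26B1, MEIS1 and PHF19 in the 5 groups; points are arrays, bars are mean ± SD (n = 3), and the grey band is the range of array medians. ALDH1A3, CRABP2 and RDH10 are highest in the induced arrays at t = 48, PHF19 is lower at t = 24 and induced t = 48, and MEIS1 is lowest at t = 8.

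Of the genes that flank the HOX clusters, 23 were tested, and between induced and control cells at t = 48 2 rose and 0 fell, where 8.6% of all genes passed. CALCOCO1, beside the C cluster, differed by 0.54 (SE 0.15; limma, adjusted p = 0.0399), a call lost without any 1 of the induced arrays or control replicate 2 or 3 (up to 0.142). NFE2L1, beside the B cluster, differed by 0.35 (SE 0.10; limma, adjusted p = 0.0424), lost without any 1 of the 6 arrays (up to 0.139). When each probe set was tested, this NFE2L1 probe set did not pass (limma, adjusted p = 0.0704). Its other 2 probe sets differed by 0.46 and 0.38 and did pass there (limma, adjusted p = 0.027 and 0.0267). Of the ParaHox genes and posterior regulators, 9 of 14 on the array reached the median on no array, CDX1, CDX2 and CDX4 among them. In limma 0 of the 4 tested passed between induced and control cells at t = 48, where 8.6% of all genes passed, and 2 had an unadjusted p under 0.05. GDF11, which sets the start of posterior HOX expression in the trunk, passed from t = 8 to t = 24 with a rise of 0.82 (SE 0.20; limma, adjusted p = 0.035). That call was lost without any 1 of the t = 24 arrays or t = 8 replicate 2 or 3 (up to 0.103). The other GDF11 probe sets with readable signal, of means 31.6, 28.4 and 12.9, differed by 0.13, 0.13 and 1.05 and did not pass (limma, adjusted p = 0.795, 0.867 and 0.145 with each probe set tested). Of the partners and inhibitors of HOX proteins, 0 of 11 passed in limma between induced and control cells at t = 48, against the same 8.6%. At an unadjusted p under 0.05, 1 did. BTG1, which binds HOXB9, rose from t = 0 to t = 48 both in the control (0.46; limma, adjusted p = 0.0385) and in induced cells (0.37; limma, adjusted p = 0.016). The control call was lost without any 1 of the t = 0 arrays or control replicate 2 or 3 (up to 0.196), and the induced call without t = 0 replicate 2 or induced replicate 3 (up to 0.0659). A second BTG1 probe set differed by 0.31 in the control and 0.16 in induced cells and did not pass (limma, adjusted p = 0.235 and 0.246 with each probe set tested).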

How the data were processed

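RNA from 15 samples was read on Affymetrix arrays, 3 per group. The authors deposited 1 linear intensity per probe set, computed with GCOS and MAS5 (versions not stated) per the submitters' processing notes. Each array's mean, with 2 percent trimmed at each end, was 100.01 in these deposited values, so arrays had been scaled as a whole. The number of arrays limits the precision. The annotation gave 41091 of 54675 probe sets exactly 1 symbol, 1801 several, and 11721 were not listed (62 were array controls); 41037 matched RefSeq (GRCh38.p14), which supplied current symbols. Some genes are not reported here.

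Per gene the probe set with the highest mean signal was taken, then kept where it reached the array median on at least 3 of 15 arrays (12868 genes). Group means of log2(signal + 5.16), the offset being the mean lower quartile, were compared in limma 3.58.1 (R 4.3.3; lmFit and eBayes, two-sided, all 15 arrays sharing 1 spread), with Benjamini-Hochberg adjustment over the 12868 genes and a threshold of 0.05. The offset added before the log2 understates changes of low signals. Fits were tested on simulated data. Figures used matplotlib 3.10.9 in Python 3.11.15.

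The members, lists and tests were chosen with earlier results of these data known. All tested members are given on every array. Test statistics, though not for every comparison, are given for the 3 past the threshold and the next 5 by F. The non-member genes named passed at t = 48 or in the F-test, were most like HOXC4 or HOXB9, or are noncoding RNAs and markers that reached the median on no array. HAGLR, HOTTIP, HOTAIR, the CDX genes, and the comparisons shown for them were chosen after their values were seen. Alternatives covered offset, scaling, filter, probe set, variance model, arrays fitted, replicate block, threshold and arrays left out. No sequence of HOX proteins was used here.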

Additional observations from a re-analysis of the deposited data

How the results depend on the processing

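No named gene that passed changed the sign of that difference under any alternative run. With each probe set tested, HOXD-AS2, CYP26B1, CALCOCO1, RBBP7 and the chosen NFE2L1 probe set did not pass between induced and control cells at t = 48. Their adjusted p in limma ran from 0.0513 (HOXD-AS2) to 0.0704 (NFE2L1). The chosen probe sets of ALDH1A3, CRABP2, RDH10, PHF19 and PCGF1 did pass there. Between t = 0 and t = 8, the count of HOX genes called fell from 1 to 0 with the offset 4 times larger, with no filter, with a filter on mean signal, with each probe set tested, with a trend and robust variance, at an adjusted p of 0.01, without the 2 weak-control arrays and with only the compared groups fitted. Between t = 0 and t = 24 it fell from 1 to 0 under the same 8 alternatives. Between t = 0 and induced t = 48 it fell from 3 to 1 (HOXD4) with the mean filter, with the trend and robust variance and without the weak-control arrays, and to 0 at 0.01. From t = 8 to t = 24 it fell from 1 to 0 with the mean filter, the trend and robust variance, at 0.01 and with only the compared groups. The F-test went from 2 to 1 with the mean filter (HOXD4), the trend and robust variance (HOXD4) and without the weak-control arrays (HOXB9), and to 0 at 0.01. Between induced and control cells at t = 48 it rose from 0 to 1 (HOXB4) with arrays centred on the median and with quantile normalization. Apart from the mean filter, which removed HOXB4 and HOXB9, the cause was not tested. Of 19 alternatives, HOXD4 passed from t = 0 to induced t = 48 in 18, at 0.52 to 0.67 on the log2 scale.

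With 1 array left out in turn, the counts ran from 0 to 0 (t = 0 to t = 8, to t = 24 and to the control), 1 to 2 (t = 0 to induced t = 48), 0 to 2 (t = 8 to t = 24), 0 to 0 (t = 24 to induced t = 48), 0 to 1 (induced and control at t = 48) and 2 to 3 (F-test). The 11 members above the median became 6 when every array had to reach it and 4 when the mean had to reach 2 times the median. Chosen after seeing the data, leaving out the weak-control arrays and centring on the median took the noncoding RNAs called at t = 48 from 1 to 0 and 0, and the flanking genes from 2 to 0 and 1. Centring also moved the split of all genes called from t = 8 to t = 24 from 54.9% to 70.6% higher, and the trend and robust variance moved it to 48.1%; centring moved that from t = 0 to the control from 56.9% to 48.4%.

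Replicate numbers showed no clear pairing of the arrays, though 3 arrays per group cannot show that there was none. Deviations from the group mean correlated by over 0.1 in 3 of 30 same-numbered pairs and in 8 of 60 others. With the replicate number as a block, the count from t = 0 to t = 8 fell from 1 to 0; the other counts of HOX genes stayed within 1.5 times.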
